A study of Mus musculus with 6 samples.

Results

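Yap1, Wwtr1, Tead1, Tead4, Cyr61, Ctgf, Nov, Ankrd1, Amotl2 and Vgll3 were chosen by symbol as the transcriptional branch of the Hippo pathway and its CCN-type targets. These are 10 of the 28892 genes in the gene table. All 10 had a mean of at least 0.5 FPKM over the 6 libraries, the minimum for testing. The choice was made with earlier results of these data known. C2C12 is a myoblast line that goes back to satellite cells of the thigh muscle of a C3H mouse. RNA was sequenced from C2C12(Myod1-/-) cells and from C2C12(WT) cells, 3 libraries each, both after 6 days in the serum-free medium Ndiff227. The C2C12(Myod1-/-) cells descend from 1 clone that was infected with a lentiCRISPRv2 vector against exon 1 of Myod1, selected with puromycin and picked as single cells, and no such steps are described for the C2C12(WT) cells. In this medium the wild-type cells formed thin myotubes and the knockout cells formed floating spheres, so the genotypes also differ in culture form. Effects of the deletion, of the clone and of the culture form cannot be told apart in these libraries. The labels do not say whether the 3 libraries of a genotype came from separate cultures, and the p-values below then measure only the spread between these samples. RNA came from whole cultures, in which fewer cells of a type and less RNA per cell cannot be told apart.

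In the Hippo pathway, the kinases MST and LATS phosphorylate the coactivators YAP and TAZ, which are then held in the cytoplasm or degraded. Unphosphorylated YAP and TAZ enter the nucleus, where they have no DNA-binding domain of their own and act through the TEAD transcription factors. The CCN genes Cyr61 and Ctgf, together with Ankrd1 and Amotl2, are among the genes most often read as targets of YAP, TAZ and TEAD, and the pathway responds to cell density, cell shape and attachment. The activity of YAP and TAZ lies mainly in their phosphorylation and location, which an RNA measurement does not see.

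Myod1, the deleted gene, was listed at 0.0614, 0 and 0 FPKM in C2C12(Myod1-/-) replicates 1 to 3, against 17.3, 25.8 and 27.7 FPKM in C2C12(WT) replicates 1 to 3. Over the 14045 tested genes, Pearson's r of log2(FPKM + 0.1) between libraries was 0.975 to 0.982 within a genotype and 0.797 to 0.811 between genotypes. Relative depth, read from the steps between the lowest FPKM values, differed by at most 1.13-fold between the 6 libraries. Of 7 skeletal muscle genes (Acta1, Myh3, Myog, Des, Ckm, Mylpf and Tnnc2) all 7 were lower in C2C12(Myod1-/-) cells, against 33.3% of all tested genes. Their summed level was 14.4 to 15.1 FPKM there and 2918 to 3156 FPKM in C2C12(WT) cells. All but Des were under 0.5 FPKM in every C2C12(Myod1-/-) library and passed the minimum level only through their C2C12(WT) values. None of the leukocyte, endothelial or epithelial markers in the table exceeded 0.366 FPKM in any library. Of 4 tested fibroblast genes, Col1a1 and Col1a2 were lower and Pdgfra and Dcn higher in C2C12(Myod1-/-) cells, and the sum of all 5 listed, Thy1 included, was 384 to 431 FPKM there and 1573 to 1772 FPKM in C2C12(WT) cells. Mitochondrially encoded genes took 5.07 to 5.25% of the summed FPKM in C2C12(Myod1-/-) libraries and 7.32 to 8.49% in C2C12(WT) libraries.

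Of the 10 genes, 8 were lower in C2C12(Myod1-/-) cells, none was higher and 2 were not called, where a gene was called at a limma adjusted p under 0.05 over all 14045 tested genes. Among all tested genes, 33.3% were lower and 27.9% higher by the same call. The median log2 fold change (C2C12(Myod1-/-) over C2C12(WT)) was -1.75 over the 10 genes and -0.05 over all tested genes. The CCN genes, Ankrd1, Amotl2 and Vgll3 had the large differences, from 2.20-fold for Ctgf to 28.0-fold for Ankrd1, whereas the coactivators and TEAD factors differed by less than 2-fold. By the study's rule for a DEG (a log2 fold change of 1 or more in size, with p up to 0.05 before adjustment), 6 of the 10 were lower, against 11.7% of all tested genes, and none was higher, against 8.67%.

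**Figure D1:**
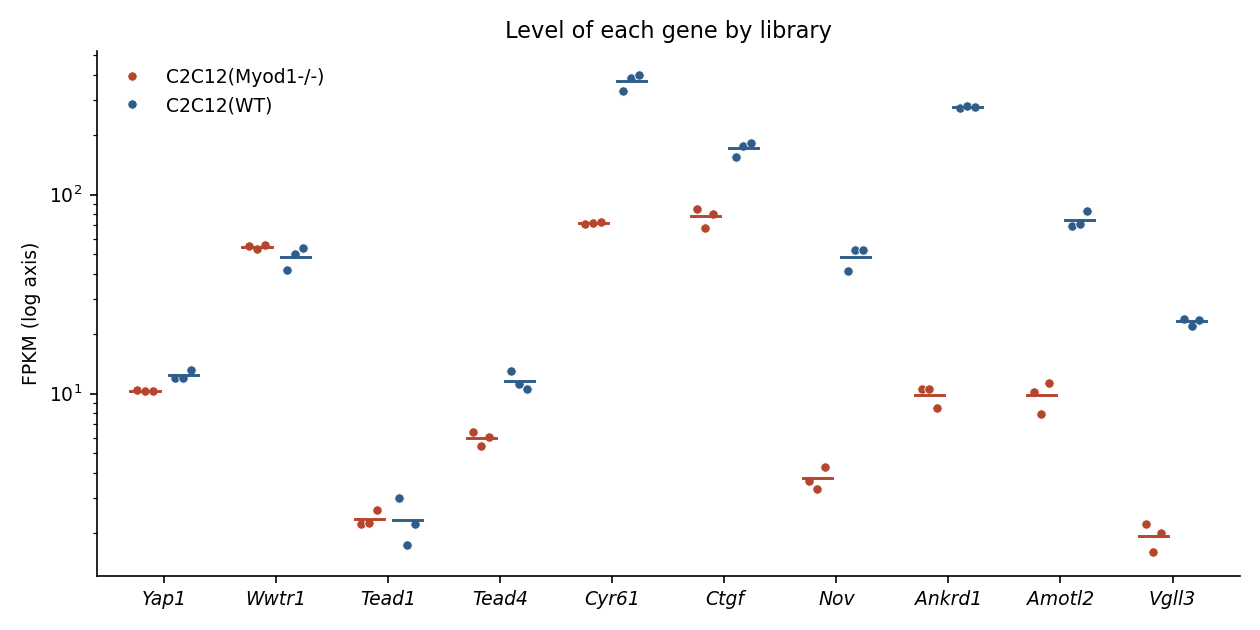
FPKM of the 10 genes in each library on a log axis, with C2C12(Myod1-/-) points left of C2C12(WT) points for each gene and a bar at the mean. The libraries of the genotypes overlap for Wwtr1 and Tead1 and are apart for the other 8 genes, with the widest gap for Ankrd1 (on average 9.82 FPKM in C2C12(Myod1-/-) and 275 FPKM in C2C12(WT)).

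The promoters are shown because TEAD factors recognise the letters GGAATG, which read CATTCC on the other strand. Cyr61, Ankrd1 and Amotl2 were chosen as known targets of YAP, TAZ and TEAD, so the motif was likely there whatever their change. Windows of RefSeq on GRCm38, from 250 bases before to 50 bases after the start of the gene, were given for 6 of the 10 genes. Tead1, Tead4, Ctgf and Nov had none. All 6 genes with a window held the motif on one strand or the other. Of all 32851 promoter windows 14.7% held it, and of the 27025 genes with a window 16.6% did. In the pathway lists described further on it was in 3 of 7 Hippo core genes with a window, 4 of 15 upstream regulators, 2 of 4 TEAD factors and cofactors, and 4 of 12 genes of a YAP and TAZ target signature. Each line gives 30 bases read 5′ to 3′ on the strand of the gene, with the motif in capitals:
Yap1, chr9:8004720-8004749, minus strand, 141 bases before the start: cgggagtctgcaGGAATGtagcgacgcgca
Wwtr1, chr3:57576029-57576058, minus strand, 136 or 170 bases before its 2 starts: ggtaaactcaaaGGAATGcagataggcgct
Cyr61, chr3:145650071-145650100, minus strand, 103 bases before the start: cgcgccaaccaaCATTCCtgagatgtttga
Ankrd1, chr19:36120037-36120066, minus strand, 210 bases before the start: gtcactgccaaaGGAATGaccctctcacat
Ankrd1, chr19:36119950-36119979, minus strand, 123 bases before the start: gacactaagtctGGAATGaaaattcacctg
Amotl2, chr9:102717727-102717756, plus strand, 65 bases before the start: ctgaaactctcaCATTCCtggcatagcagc
Vgll3, chr16:65815114-65815143, plus strand, 63 bases before the start: cccgcctccccaCATTCCggctaccctgcc

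Ankrd1 had 2 copies of the motif and the others 1 each, all before the RefSeq start. For Amotl2 that start lies inside the gene as placed in the gene table (chr9:102716672-102733418, plus strand). The Amotl2 motif lies inside that range too. Of the windows of all genes, 12.6% held the motif before the start. The motif was present in Wwtr1, which was not called, as well as in Cyr61, Ankrd1, Amotl2 and Vgll3, which had large differences. The E-box CANNTG, which has the same form on both strands and is bound by MYOD1 and related factors, was found 2 times in the Yap1 window and 1 time in the Ankrd1 window, and not in those of Wwtr1, Cyr61, Amotl2 and Vgll3, whereas 72.3% of all windows held it. The CArG box, bound by serum response factor, was in none of the 6 windows and in 1.63% of all windows. These are matches of letters in a short window and show no binding.

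Yap1 (ENSMUSG00000053110, chr9:7931999-8004596, minus strand, GRCm38) encodes the coactivator YAP. It had 10.4, 10.3 and 10.3 FPKM in C2C12(Myod1-/-) replicates 1, 2 and 3, against 12.04, 12.04 and 13.16 FPKM in C2C12(WT) replicates 1, 2 and 3; values of 3 libraries are given in this order throughout. All C2C12(Myod1-/-) libraries lay below all C2C12(WT) libraries. The mean was 10.4 ± 0.0534 FPKM in C2C12(Myod1-/-) and 12.4 ± 0.647 FPKM in C2C12(WT) cells (SD, n = 3 each), a log2 fold change of -0.26 with a standard error of 0.05 (limma adjusted p = 0.00611). Yap1 thus fell, but by only 1.20-fold, the smallest difference among the 8 genes called.

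Wwtr1 (ENSMUSG00000027803, chr3:57455649-57575910, minus strand) encodes TAZ, the paralog of YAP. It had 54.9, 53.3 and 55.7 FPKM in C2C12(Myod1-/-) libraries, against 41.5, 50.5 and 53.7 FPKM in C2C12(WT) libraries. The highest C2C12(WT) library lay above the lowest C2C12(Myod1-/-) library, so the genotypes overlapped. The log2 fold change was 0.18 with a 95% interval of -0.05 to 0.41 (limma adjusted p = 0.151), and it was 0.07 without C2C12(WT) replicate 1, the lowest library. A small difference in either direction is therefore not excluded by these 6 libraries. Wwtr1 was the more abundant of the coactivators per length in every library: the ratio of Yap1 to Wwtr1 was 0.190, 0.194 and 0.185 in C2C12(Myod1-/-) libraries, against 0.290, 0.238 and 0.245 in C2C12(WT) libraries. The ratios of the genotypes did not overlap, with a difference of -0.44 on the log2 scale (two-sided exact permutation test, p = 0.1). This p of 0.1 is the smallest that 3 against 3 libraries can give, and the value was the same after adjustment over the 6 pairs of genes compared in this way.

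Tead4 (ENSMUSG00000030353, chr6:128224288-128300823, minus strand), a TEAD factor with known expression in differentiating myoblasts, was lower in C2C12(Myod1-/-) cells. It had 6.40, 5.45 and 6.08 FPKM there, against 13.0, 11.2 and 10.5 FPKM in C2C12(WT) libraries. These values did not overlap. The mean was 5.98 ± 0.481 FPKM in C2C12(Myod1-/-) and 11.6 ± 1.27 FPKM in C2C12(WT) cells (SD, n = 3 each), 1.94-fold lower, with a log2 fold change of -0.94 and a standard error of 0.10 (limma adjusted p = 0.000264). Tead1 (ENSMUSG00000055320, chr7:112679318-112906807, plus strand), which binds muscle gene promoters at the M-CAT element, had 2.21, 2.23 and 2.61 FPKM in C2C12(Myod1-/-) libraries, against 3.00, 1.74 and 2.21 FPKM in C2C12(WT) libraries. Its values overlapped, and the log2 fold change of 0.05 had a 95% interval of -0.43 to 0.53 (limma adjusted p = 0.849). The direction for Tead1 depended on single libraries: the log2 fold change was -0.03 without C2C12(Myod1-/-) replicate 3 and -0.13 without C2C12(WT) replicate 2. The ratio of Tead1 to Tead4 was 0.345, 0.408 and 0.429 in C2C12(Myod1-/-) libraries and 0.231, 0.155 and 0.210 in C2C12(WT) libraries, which did not overlap (exact permutation p = 0.1). This ratio rests on gene values, from which the summed annotated transcripts of both genes departed, as given further on.

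Since FPKM are per length, the 4 TEAD paralogs can be summed. Their sum was 25.7, 23.1 and 25.0 FPKM in C2C12(Myod1-/-) libraries, against 33.9, 31.5 and 30.1 FPKM in C2C12(WT) libraries, lower in all C2C12(Myod1-/-) libraries. Tead4 made up 24.2 ± 0.645% of this sum in C2C12(Myod1-/-) and 36.3 ± 1.79% in C2C12(WT) cells (SD, n = 3 each; exact permutation p = 0.1). Tead3 was the largest component in C2C12(Myod1-/-) cells with 39.2%, against 34.6% in C2C12(WT) cells. In C2C12(WT) libraries Tead4 had 38.4, 35.7 and 35.0%, against 33.5, 35.6 and 34.7% for Tead3. Tead4 was thus clearly the larger there only in replicate 1. Tead1 was the smallest component in both genotypes, with 9.54% in C2C12(Myod1-/-) and 7.24% in C2C12(WT) cells (exact permutation p = 0.2). These shares rest on gene values. The summed annotated transcripts were 1.21 to 5.75 times the gene value for Tead1 and 0.148 to 0.881 times for Tead4. By these sums Tead1 was above Tead4 in every library except C2C12(WT) replicate 3.

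Cyr61 (ENSMUSG00000028195, chr3:145646976-145649981, minus strand) encodes a secreted matricellular protein that binds integrins. Its level was 71.0, 71.9 and 73.0 FPKM in C2C12(Myod1-/-) libraries, against 329.7, 384.8 and 400.6 FPKM in C2C12(WT) libraries. The lowest C2C12(WT) library, replicate 1, was still far above every C2C12(Myod1-/-) library. The mean was 71.9 ± 1.02 FPKM in C2C12(Myod1-/-) and 372 ± 37.2 FPKM in C2C12(WT) cells (SD, n = 3 each), which is 5.17-fold lower, with a log2 fold change of -2.36 and a standard error of 0.08 (limma adjusted p = 1.19e-06). By mean level among tested genes, Cyr61 ranked 602nd in C2C12(Myod1-/-) and 95th in C2C12(WT) cells.

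Ctgf (ENSMUSG00000019997, chr10:24595442-24598683, plus strand), a secreted regulator of matrix production, had 85.0, 67.9 and 80.0 FPKM in C2C12(Myod1-/-) libraries, against 155, 176 and 181 FPKM in C2C12(WT) libraries. The genotypes did not overlap. Ctgf fell 2.20-fold, to 77.7 ± 8.78 FPKM in C2C12(Myod1-/-), against 171 ± 13.9 FPKM in C2C12(WT) cells (SD, n = 3 each), a log2 fold change of -1.14 with a standard error of 0.10 (limma adjusted p = 0.000105). Nov (ENSMUSG00000037362, chr15:54745702-54754039, plus strand), which encodes CCN3, a family member known in myoblasts as a modulator of Notch and BMP signals, had 3.65, 3.33 and 4.27 FPKM in C2C12(Myod1-/-) libraries, against 41.4, 52.5 and 52.5 FPKM in C2C12(WT) libraries. Every C2C12(Myod1-/-) value was under 5 FPKM and every C2C12(WT) value above 40 FPKM. Nov fell 13.0-fold, with a log2 fold change of -3.67 and a standard error of 0.13 (limma adjusted p = 1.74e-06).

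The CCN genes changed by unequal amounts, which their ratios within a library show. The ratio of Cyr61 to Ctgf was 0.835, 1.06 and 0.912 in C2C12(Myod1-/-) libraries, against 2.13, 2.19 and 2.21 in C2C12(WT) libraries, a difference of -1.23 on the log2 scale. The ratio of Cyr61 to Nov was 19.5, 21.6 and 17.1 in C2C12(Myod1-/-) libraries, against 7.96, 7.32 and 7.63 in C2C12(WT) libraries, a difference of 1.34. For Ctgf to Nov the ratio was 23.3, 20.4 and 18.7 in C2C12(Myod1-/-) libraries, against 3.74, 3.35 and 3.45 in C2C12(WT) libraries, a difference of 2.56. None of these ratios overlapped between genotypes (exact permutation p = 0.1 each), so that Ctgf fell least and Nov most of the 3 genes.

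The other CCN genes in the table are Wisp1 and Wisp2. Wisp1 was lower in C2C12(Myod1-/-) cells, with 28.5 FPKM there and 47.0 FPKM in C2C12(WT) cells (log2 fold change -0.72, limma adjusted p = 2.2e-05), whereas Wisp2 had 16.7 FPKM in C2C12(Myod1-/-) and 16.3 FPKM in C2C12(WT) cells (log2 fold change 0.03, limma adjusted p = 0.823). The sum of the 5 CCN genes was 205, 185 and 206 FPKM in C2C12(Myod1-/-) libraries, against 588, 678 and 698 FPKM in C2C12(WT) libraries. Cyr61 made up 36.3 ± 2.23% of it in C2C12(Myod1-/-) and 56.8 ± 0.625% in C2C12(WT) cells, and Ctgf 39.0% in C2C12(Myod1-/-) and 26.1% in C2C12(WT) cells. Nov took 1.89% in C2C12(Myod1-/-) and 7.44% in C2C12(WT) cells (exact permutation p = 0.1 for each share, SD and n = 3 throughout).

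**Figure D2:**
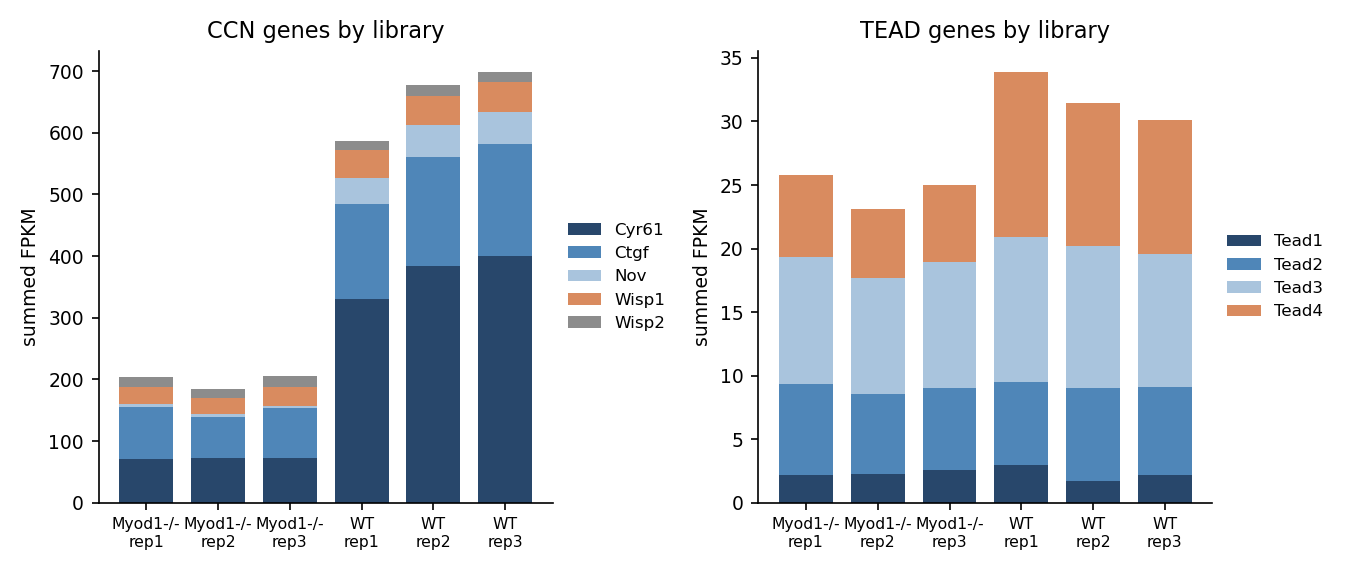
Summed FPKM of the CCN genes (left panel) and of the TEAD genes (right panel) in each library, split by gene, with the 3 C2C12(Myod1-/-) bars left of the 3 C2C12(WT) bars. The CCN sum lies between 185 and 206 FPKM in C2C12(Myod1-/-) and between 588 and 698 FPKM in C2C12(WT) libraries, and Cyr61 is the largest component of the C2C12(WT) bars (56.8% on average).

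Ankrd1 (ENSMUSG00000024803, chr19:36111965-36119844, minus strand) encodes the cardiac ankyrin repeat protein, which is found at the titin filament of striated muscle and in the nucleus, and is also a common readout of YAP. It had 10.5, 10.5 and 8.47 FPKM in C2C12(Myod1-/-) libraries, against 271, 279 and 275 FPKM in C2C12(WT) libraries. The genotypes were far apart, and the C2C12(WT) values varied less relative to their mean. The mean was 9.82 ± 1.17 FPKM in C2C12(Myod1-/-) and 275 ± 3.83 FPKM in C2C12(WT) cells (SD, n = 3 each), 28.0-fold lower, with a log2 fold change of -4.80 and a standard error of 0.09 (limma adjusted p = 1.35e-07). This was the largest fall of the 10 genes and, by log2 fold change, the 134th largest of the 14045 tested genes. The ratio of Ankrd1 to Cyr61 was 0.148, 0.146 and 0.116 in C2C12(Myod1-/-) libraries, against 0.823, 0.725 and 0.687 in C2C12(WT) libraries, a difference of -2.45 on the log2 scale (exact permutation p = 0.1). Ankrd2 and Ankrd23, the related muscle ankyrin repeat genes, were lower too. Ankrd2 had 0.117, 0.177 and 0 FPKM in C2C12(Myod1-/-) libraries, against 31.3, 35.7 and 32.7 FPKM in C2C12(WT) libraries. It passed the minimum level only through its C2C12(WT) values, so that its difference is a description. The log2 fold change of Ankrd2 was -7.52, and between -9.07 and -4.96 under the alternatives. Ankrd23 had a mean of 2.03 FPKM in C2C12(Myod1-/-) and 5.16 FPKM in C2C12(WT) cells (log2 fold change -1.32, limma adjusted p = 0.000572). The skeletal muscle genes given above moved with this group, and their part in the levels of Ankrd1 was not tested.

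Amotl2 (ENSMUSG00000032531, chr9:102716672-102733418, plus strand) encodes an angiomotin that binds YAP and keeps it out of the nucleus, and is itself a target of YAP. It had 10.2, 7.90 and 11.3 FPKM in C2C12(Myod1-/-) libraries, against 69.1, 71.3 and 82.7 FPKM in C2C12(WT) libraries, with no overlap. Amotl2 fell 7.60-fold, with a log2 fold change of -2.92 and a standard error of 0.14 (limma adjusted p = 6.96e-06). Vgll3 (ENSMUSG00000091243, chr16:65815257-65866368, plus strand), a vestigial-like cofactor that binds TEAD factors in place of YAP and TAZ, had 2.21, 1.60 and 1.99 FPKM in C2C12(Myod1-/-) libraries, against 23.7, 21.9 and 23.5 FPKM in C2C12(WT) libraries. Here, too, the genotypes were apart. Vgll3 fell 11.9-fold, with a log2 fold change of -3.52 and a standard error of 0.12 (limma adjusted p = 1.45e-06).

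The order of the mean FPKM differed between genotypes. In C2C12(Myod1-/-) cells Ctgf and Cyr61 came first, with overlapping libraries, then Wwtr1, then Yap1, Ankrd1 and Amotl2, whose neighbours overlapped, then Tead4, Nov, and last Tead1 and Vgll3, which overlapped. In C2C12(WT) cells the order was Cyr61, Ankrd1, Ctgf, Amotl2, then Nov and Wwtr1, which overlapped, then Vgll3, then Yap1 and Tead4, which overlapped, and Tead1. Ankrd1 and Amotl2 were thus at the level of Yap1 in C2C12(Myod1-/-) cells and well above it in C2C12(WT) cells. For 8 of the 10 genes all C2C12(Myod1-/-) libraries lay below all C2C12(WT) libraries, which held for 36.5% of all tested genes, and for none did they lie above, against 31.4%.

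The genes most like Cyr61 over the 6 libraries, by Pearson's r of log2(FPKM + 0.1) over the 5070 tested genes that averaged 10 FPKM or more, were Prkar1a, a regulatory subunit of protein kinase A, mt-Co2, a mitochondrially encoded subunit of cytochrome oxidase, and Syt13, a synaptotagmin. For Ctgf they were Ttyh3, Ugp2 and Eid1, and for Ankrd1 they were Klhl41, Atp2a1 and Tnnt3, which are known from the sarcomere or sarcoplasmic reticulum of muscle. In all 9 pairs the 6 points fall into 3 of each genotype, and r was above 0.99 for 482 genes with Cyr61, 62 with Ctgf and 517 with Ankrd1. The 9 genes named were all lower in C2C12(Myod1-/-) cells, with log2 fold changes between -8.57 and -0.74. This direction was set by the choice, because they were picked for their likeness to genes that fell.

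**Figure D3:**
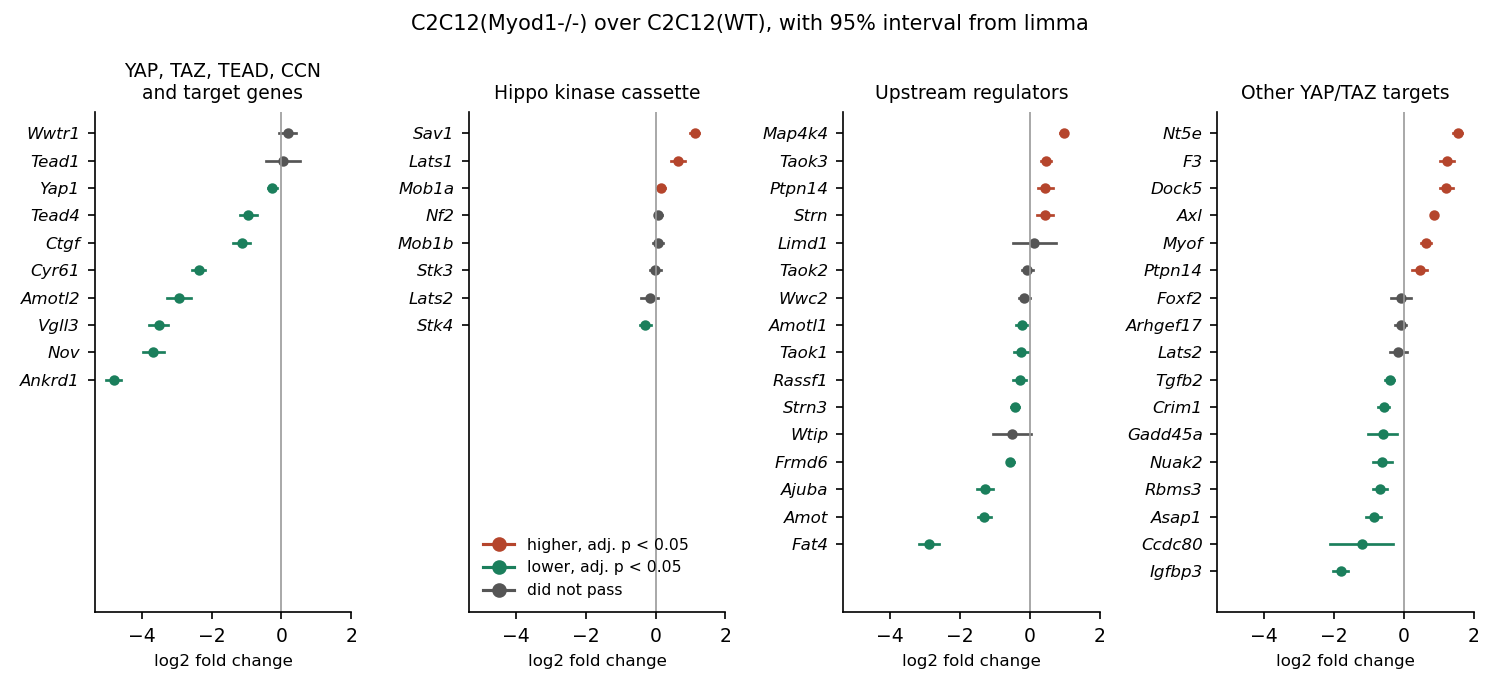
Log2 fold change of C2C12(Myod1-/-) over C2C12(WT) with its 95% interval from limma, for the 10 genes and for tested genes of the Hippo core, its upstream regulators and a YAP and TAZ target signature, with calls at an adjusted p under 0.05 in colour. The 10 genes reach -4.80 (Ankrd1) with none called higher, while the core has more genes above 0 and the signature genes lie on both sides, between -1.81 (Igfbp3) and 1.54 (Nt5e).

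The core of the Hippo pathway holds the kinases that phosphorylate YAP and TAZ and their scaffolds. Of its 8 genes, 3 were higher in C2C12(Myod1-/-) cells, 1 was lower and 4 were not called, with a median log2 fold change of 0.08. The share higher, 37.5%, stands beside 27.9% of all tested genes, and the share lower, 12.5%, beside 33.3%. Sav1, the scaffold of the MST kinases, had 24.9 ± 0.931 FPKM in C2C12(Myod1-/-) and 11.4 ± 0.406 FPKM in C2C12(WT) cells (SD, n = 3 each; log2 fold change 1.12, limma adjusted p = 5.56e-06). Lats1, a kinase that acts on YAP directly, had 21.2 FPKM in C2C12(Myod1-/-) and 13.6 FPKM in C2C12(WT) cells (log2 fold change 0.64, limma adjusted p = 0.000607). Stk4, which encodes an MST kinase, was lower, with 6.30 FPKM in C2C12(Myod1-/-) and 7.72 FPKM in C2C12(WT) cells (log2 fold change -0.29, limma adjusted p = 0.0114). Mob1a, an adaptor of the LATS kinases, was higher, with 39.9 FPKM in C2C12(Myod1-/-) and 35.7 FPKM in C2C12(WT) cells (limma adjusted p = 0.0192), a call that was lost without C2C12(Myod1-/-) replicate 1 or 3 and with quantile normalization. Nf2, which encodes merlin, was not called (limma adjusted p = 0.16). Lats2 was not called either (limma adjusted p = 0.195), but was called lower without C2C12(WT) replicate 3 (limma adjusted p = 0.043).

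Of 18 upstream regulators, 16 were tested, and Wwc1 and Dchs1 were under the minimum level. In C2C12(Myod1-/-) cells 8 were lower, 4 were higher and 4 were not called, with a median log2 fold change of -0.24. The share lower, 50%, stands beside 33.3% of all tested genes, and the share higher, 25%, beside 27.9%. The number lower was 6 with a replicate block or when values were rescaled without mitochondrial genes, and 6 to 8 with single libraries left out. Taok1 lost its call in 8 of 14 alternatives and Rassf1 in 2. Fat4, an atypical cadherin, had 1.28, 1.25 and 1.26 FPKM in C2C12(Myod1-/-) libraries, against 11.9, 8.82 and 9.64 FPKM in C2C12(WT) libraries, 8.04-fold lower (log2 fold change -2.90, limma adjusted p = 3.46e-06). Amot, an angiomotin like Amotl2, had 7.37 FPKM in C2C12(Myod1-/-) and 18.3 FPKM in C2C12(WT) cells (log2 fold change -1.30, limma adjusted p = 1.68e-05), so that the angiomotins Amot and Amotl2 both fell. Amotl1, the other angiomotin, had a log2 fold change of -0.23 (limma adjusted p = 0.0181), and its call was lost without C2C12(Myod1-/-) replicate 1, C2C12(Myod1-/-) replicate 2 or C2C12(WT) replicate 3, and when values were rescaled without mitochondrial genes. Ajuba, a LIM protein that restrains LATS, had 6.90 FPKM in C2C12(Myod1-/-) and 17.0 FPKM in C2C12(WT) cells (log2 fold change -1.29, limma adjusted p = 5.52e-05). In the other direction, Map4k4, a kinase that can act on LATS, had 89.6 FPKM in C2C12(Myod1-/-) and 45.7 FPKM in C2C12(WT) cells (log2 fold change 0.97, limma adjusted p = 5.75e-06). Limd1 was not called, with one C2C12(WT) library at 15.6 and the others at 7.84 and 8.19 FPKM, and it was called higher without that library, C2C12(WT) replicate 1 (limma adjusted p = 0.000994). Without the same library Wtip was called lower (limma adjusted p = 0.00334).

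Of the remaining TEAD factors and vestigial-like cofactors, Vgll2 was listed at 0 in all C2C12(Myod1-/-) libraries and had 0.638, 1.59 and 1.17 FPKM in C2C12(WT) libraries. It passed the minimum level only through its C2C12(WT) values, so that its difference is a description, and it was not tested with a minimum of 1 FPKM or without C2C12(WT) replicate 2 or 3. Vgll2, like Vgll3, is a partner of TEAD factors and is known from skeletal muscle. Tead3 and Vgll4 passed the threshold narrowly, with log2 fold changes of -0.19 and 0.15 (limma adjusted p = 0.0374 and 0.045), and of the fits with 1 library left out the call of Tead3 held only without C2C12(WT) replicate 3 and that of Vgll4 only without C2C12(Myod1-/-) replicate 1. Vgll1 was not analysed here. Tead2 had 6.65 FPKM in C2C12(Myod1-/-) and 6.92 FPKM in C2C12(WT) cells (limma adjusted p = 0.535).

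A set of 18 further genes came from a signature of YAP and TAZ targets compiled in human cancers, which also names Cyr61, Ctgf, Ankrd1 and Amotl2. Fjx1 was under the minimum level, and Lats2 and Ptpn14 also belong to the lists above. Of the 17 tested, 8 were lower in C2C12(Myod1-/-) cells, 6 were higher and 3 were not called, with a median log2 fold change of -0.17. These shares, 47.1% lower and 35.3% higher, stand beside 33.3% and 27.9% of all tested genes. Igfbp3, a binding protein of insulin-like growth factors, had 3.15 FPKM in C2C12(Myod1-/-) and 11.2 FPKM in C2C12(WT) cells (log2 fold change -1.81, limma adjusted p = 8.05e-06). Nt5e, the ecto-enzyme CD73, went the other way, with 11.2 FPKM in C2C12(Myod1-/-) and 3.77 FPKM in C2C12(WT) cells (log2 fold change 1.54, limma adjusted p = 1.69e-06). F3, tissue factor, was higher too, with 56.0 FPKM in C2C12(Myod1-/-) and 23.7 FPKM in C2C12(WT) cells (log2 fold change 1.24, limma adjusted p = 3e-05). Dock5, an exchange factor for RAC, had 13.1 FPKM in C2C12(Myod1-/-) and 5.60 FPKM in C2C12(WT) cells (log2 fold change 1.21, limma adjusted p = 2.26e-05). Arhgef17 and Lats2 were the most abundant of those not called. Thus the 4 signature genes among the 10 were all lower in C2C12(Myod1-/-) cells. The rest of the signature had members in both directions. The 10 genes and the lists were chosen with earlier results of these data known, and whether this contrast comes from the choice was not tested. Ccdc80, called lower, lost its call without C2C12(Myod1-/-) replicate 2 or C2C12(WT) replicate 1 and with no minimum level, and Gadd45a, also called lower, without C2C12(Myod1-/-) replicate 2 or 3 or C2C12(WT) replicate 2 or 3 and with a replicate block.

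The transcript table gave another view of the 10 genes, with 47 annotated transcripts, of which 28 were tested. Of these 5 were lower in C2C12(Myod1-/-) cells and 1 was higher, where 9.3% of all 41216 tested transcripts were lower and 9.57% higher. The higher one, ENSMUST00000153911 of Amotl2, had 0.682, 0.420 and 3.18 FPKM in C2C12(Myod1-/-) libraries and was listed at 0 in all C2C12(WT) libraries, and its call was lost in all 9 alternatives run on transcripts. Nov and Ankrd1 each have 1 annotated transcript, which followed the gene: ENSMUST00000050027 of Nov had 3.60, 3.29 and 4.22 FPKM in C2C12(Myod1-/-) libraries, against 41.2, 52.5 and 52.5 FPKM in C2C12(WT) libraries. The main Ctgf transcript, ENSMUST00000020171, had 98.2, 78.3 and 91.5 FPKM in C2C12(Myod1-/-) libraries, against 175, 207 and 208 FPKM in C2C12(WT) libraries (log2 fold change -1.14, limma adjusted p = 0.00179). The only Cyr61 transcript, ENSMUST00000029846, was not called (limma adjusted p = 0.0659), although its values did not overlap: it had 25.0, 55.7 and 30.2 FPKM in C2C12(Myod1-/-) libraries, against 62.9, 161 and 185 FPKM in C2C12(WT) libraries.

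The sum of the annotated transcripts over the value of the gene was 0.987 to 0.9996 for Nov and Ankrd1, 1.004 to 1.022 for Wwtr1 and 1.18 to 1.20 for Ctgf. For Cyr61 it was 0.191 to 0.775, for Tead4 0.148 to 0.881, for Tead1 1.21 to 5.75 and for Vgll3 0.00776 to 1.34. The Vgll3 transcripts summed to 2.97, 2.04 and 0.0154 FPKM in C2C12(Myod1-/-) libraries, against 2.89, 21.8 and 23.6 FPKM in C2C12(WT) libraries. These sums overlap, and no Vgll3 transcript was called. The Tead4 transcripts summed to 5.64, 1.499 and 5.24 FPKM in C2C12(Myod1-/-) libraries, against 1.92, 2.54 and 3.28 FPKM in C2C12(WT) libraries, which overlap and do not follow the fall of Tead4 in the gene table. StringTie also assembled 11474 transcripts that carry no Ensembl identifier and no symbol in the deposited table. Which of them belong to these genes was not determined. Isoforms of Amotl2 and Yap1 also traded places between libraries of 1 genotype: the Amotl2 transcript ENSMUST00000153965 had 94.8 FPKM in C2C12(WT) replicate 2 and was listed at 0 in the other 5 libraries, while ENSMUST00000035121 had 89.5, 2.38 and 110.5 FPKM in the C2C12(WT) libraries. Likewise the Yap1 transcript ENSMUST00000086580 had 16.3, 5.50 and 12.6 FPKM in the C2C12(Myod1-/-) libraries, where ENSMUST00000065353 had 5.57, 16.7 and 9.66 FPKM. No statement on isoform use is drawn from these values.

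**Figure D4:**
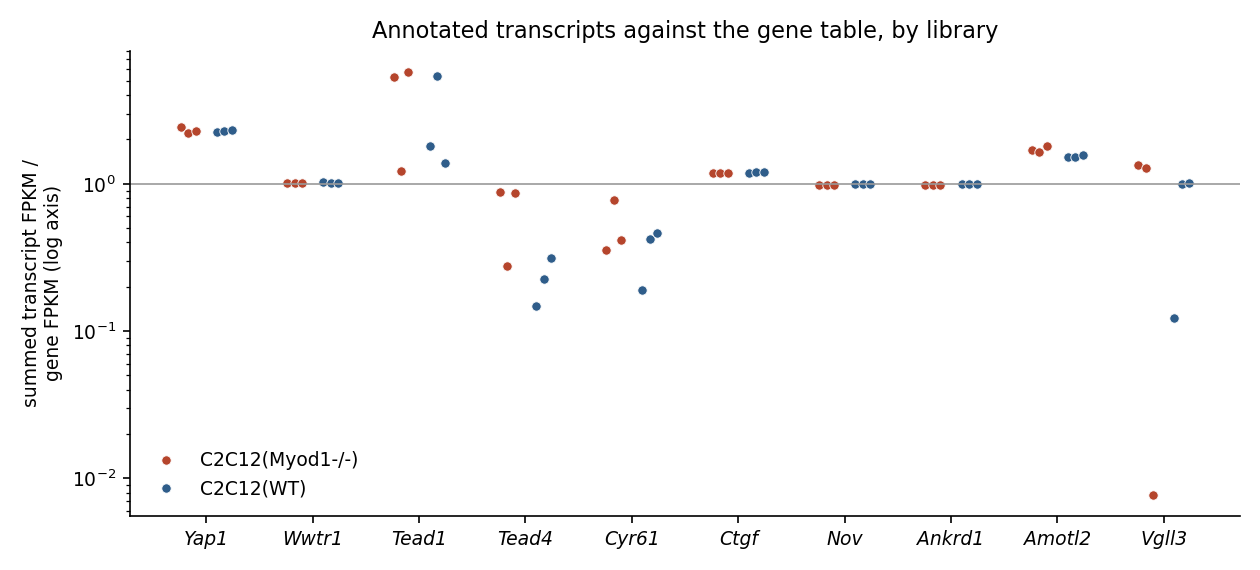
Summed FPKM of the annotated transcripts divided by FPKM of the gene, on a log axis, for the 10 genes in each library, with C2C12(Myod1-/-) points left of C2C12(WT) points. Nov, Ankrd1 and Wwtr1 lie between 0.987 and 1.02 in all 6 libraries, while Cyr61, Tead1, Tead4 and Vgll3 vary between libraries of 1 genotype.

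Genes that overlap the 10 on the opposite strand were low. The highest was Gm15270 at Ctgf, with 1.11 FPKM in C2C12(Myod1-/-) and 1.20 FPKM in C2C12(WT) cells, followed by Gm16016 at Wwtr1 with 0.504 FPKM in C2C12(Myod1-/-) and 0.576 FPKM in C2C12(WT) cells. Whether counting used strand is not given in the sources used here.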

How the data were processed

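Total RNA of 3 C2C12(Myod1-/-) and 3 C2C12(WT) samples was depleted of rRNA, made into libraries with a NEBNext Ultra kit and sequenced on a NovaSeq. Per the labels and the study's methods, the authors used bcl2fastq, fastp, FastQC, HISAT2 or TopHat on GRCm38, and StringTie, which gave the FPKM values (per length of the feature and per mapped fragments of the library) deposited for 28892 genes and 92513 transcripts. Versions, annotation, read counts and depth are not given in the sources used here, so that no counting intervals are given. FPKM are shares of a library. Columns were assigned to samples through genotype headings of a supplementary table of the study: for all 3200 genes in both tables the 6 values were equal to a relative tolerance of 0.001.

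Genes with a mean under 0.5 FPKM were left out, and log2(FPKM + 0.1) of the other 14045 was fitted by genotype with limma 3.58.1 (R 4.3.3; eBayes with an intensity trend, Benjamini-Hochberg adjustment over all tested genes). Fold changes on this scale understate changes of low genes. Count models were not used. The 41216 tested transcripts were fitted alike. Ratios and shares were compared by two-sided exact permutation over libraries. The fit was tested on simulated data. Python 3.11.15 with pandas 2.3.3, numpy 2.4.6, scipy 1.17.1 and matplotlib 3.10.9 was used. Alternatives were pseudocounts of 0.01 and 1, a minimum of 1 FPKM or none, no trend, quantile normalization, rescaling without mitochondrial genes, a replicate block and leaving out each library. Genes named were the 10, Myod1, the other CCN and muscle ankyrin repeat genes, from each pathway list up to 4 called genes with the largest change and up to 2 of the highest level not called, and the 3 genes most correlated with Cyr61, Ctgf and Ankrd1. Others, such as genes whose call rests on single libraries, were added after their values were seen. The 10 genes and all lists were chosen with earlier results of these data known. Promoters and their sequences are from RefSeq on GRCm38.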

Additional observations from a re-analysis of the deposited data

How the results depend on the processing

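The calls of the 8 lower genes held under all 14 alternatives, with log2 fold changes of -0.28 to -0.22 for Yap1 and -4.85 to -4.68 for Ankrd1 as the smallest and largest. Wwtr1 and Tead1 were called under none. Tead1 lay between -0.13 and 0.25 with single libraries left out and turned to -0.03 without C2C12(Myod1-/-) replicate 3 and to -0.13 without C2C12(WT) replicate 2. Replicate numbers did not pair the libraries (correlation of same-numbered deviations -0.10, -0.14 and -0.03), and with a replicate block 4280 genes were lower and 3559 higher, against 4670 and 3914 without it. Of the 4 tested TEAD factors and cofactors, 2 were lower (50%, against 33.3% of all tested genes) and 1 was higher (25%, against 27.9%). The 2 lower were Tead3 and Vgll2, and Vgll2 passed the minimum level only through its C2C12(WT) values. The number lower was 1 with no trend, a minimum of 1 FPKM, no minimum, quantile normalization, a replicate block or rescaling. With single libraries left out it was 0 to 1. The genes higher there numbered 1, and 0 with no trend, no minimum or a replicate block, and 0 to 1 with single libraries left out. The higher transcript of Amotl2 was called in 0 of the fits with a minimum or pseudocount of 1 FPKM, with a replicate block and without single libraries (0 in all 6). Hippo core genes lower numbered 1 to 2 with single libraries left out. The causes were not tested. Quantile normalization gave 4188 genes lower and 4441 higher, and moved the median of all genes to 0.03, against -0.05. Depth is not known beyond its relative size, which limits statements on genes near 0 FPKM.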
